A study of Mus musculus with 8 samples.

Results

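The Schlafen family was examined in RNA-seq of subcutaneous mouse lung tumors whose cancer cells carried or lacked Argonaute 2 (Ago2), the slicing enzyme of the RNA interference pathway. The members were Slfn1, Slfn2, Slfn3, Slfn4, Slfn5, Slfn8 and Slfn9, found by matching the identifiers of the count table to gene symbols of GENCODE M21. These were 7 of the 55487 identifiers of the table, and 7 of 7 passed the filter on low counts that left 16061 genes for testing. RNA came from 8 Lewis lung carcinoma (LLC) tumors, a transplantable lung cancer line of C57BL/6 origin, collected on day 12 after implantation. The wild-type group held 4 tumors grown from unmodified LLC cells, and the Ago2 knock-out group (ΔAgo2) held 4 tumors grown from LLC cells edited with a lentiviral CRISPR-Cas9 guide against Ago2. Per the study's methods, the hosts of both groups were C57BL/6J female mice bought at 6 to 8 weeks of age and acclimated for 7 days, and single-cell clones of the edited line were made, of which 1 was engrafted. The ΔAgo2 group therefore comes from a single clone, and the host's blood vessels, fibroblasts and immune cells kept their own Ago2 in both groups.

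Schlafen genes encode cytosolic and nuclear proteins with a shared core that binds RNA and, in several members, cuts transfer RNA. In the mouse they are sorted by length. Slfn1 and Slfn2 are the short members, Slfn3 and Slfn4 are of intermediate length, and Slfn5, Slfn8 and Slfn9 are long members with an additional region related to helicases. Several members are interferon-stimulated genes, and the family is best known from lymphocytes and myeloid cells, where Slfn2 is needed for T cells and monocytes to stay at rest and Slfn4 is found in activated macrophages and myeloid suppressor cells. RNA of a whole tumor mixes cancer and host cells, so a higher level of a Schlafen transcript from more cells that express it and from more transcript per cell cannot be told apart here.

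All 7 members lie side by side on chromosome 11 (GRCm38), within 263.8 kb from the start of Slfn5 to the end of Slfn3. In order along the chromosome they are Slfn5 at chr11:82951349-82964840, Slfn9 at chr11:82978390-82991830, Slfn8 at chr11:83002158-83020810, Slfn2 at chr11:83065112-83070678, Slfn1 at chr11:83116849-83122670, Slfn4 at chr11:83175186-83190216 and Slfn3 at chr11:83191330-83215154. Slfn8 and Slfn9 are transcribed from the minus strand and the others from the plus strand. The promoters are shown because the exact letters of an interferon motif were found in those of the long members only. The stretches below, of 100 bases each and read 5′ to 3′ on the strand of the gene, come from RefSeq promoter windows (GRCm38.p6) that run from 250 bases before to 50 bases after the annotated start, and all 7 members were matched. In the long members the capitals mark the core of the interferon-stimulated response element (ISRE), GAAA, any 2 bases and GAAA, on either strand, the letters bound by the main transcription factor complex activated by type I interferon.
Slfn5, chr11:82951901-82952000, plus strand: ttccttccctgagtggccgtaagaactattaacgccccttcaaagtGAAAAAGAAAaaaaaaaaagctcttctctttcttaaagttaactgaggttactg
Slfn8, chr11:83020805-83020904, minus strand: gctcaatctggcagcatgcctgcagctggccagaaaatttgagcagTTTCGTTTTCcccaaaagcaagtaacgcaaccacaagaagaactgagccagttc
Slfn9, chr11:82991822-82991921, minus strand: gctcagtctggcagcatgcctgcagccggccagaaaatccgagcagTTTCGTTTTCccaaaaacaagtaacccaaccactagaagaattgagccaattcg

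Counted from the RefSeq start, the ISRE core began at −155 in Slfn5, at −48 in Slfn8 and at −45 in Slfn9. The RefSeq start of Slfn5, at 82952102, lies 753 bases downstream of the first base of the gene in GENCODE, so the core lies inside the GENCODE gene. The 2 annotations place the start of Slfn1 29 bases apart, with RefSeq at 83116820, and share the start of the other members. Slfn8 has a second annotated start, whose window holds the same letters at −136. Of all 32851 promoter windows of the same length, 3.44% hold the ISRE core. The Slfn8 and Slfn9 windows were 86.5% identical over 289 aligned bases, so their matches are not independent of each other.

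The windows of Slfn1, Slfn2, Slfn3 and Slfn4 held no ISRE core, which says only that these letters are not in this window. The longest run of letters shared by those promoters is marked in capitals below, ACTTCCTGG, a run that was searched for after the windows had been read.
Slfn1, chr11:83116700-83116799, plus strand: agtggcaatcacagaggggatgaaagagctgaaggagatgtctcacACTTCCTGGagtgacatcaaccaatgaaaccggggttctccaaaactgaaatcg
Slfn2, chr11:83065011-83065110, plus strand: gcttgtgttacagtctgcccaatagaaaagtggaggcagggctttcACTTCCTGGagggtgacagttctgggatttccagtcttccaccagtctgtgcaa
Slfn3, chr11:83191242-83191341, plus strand: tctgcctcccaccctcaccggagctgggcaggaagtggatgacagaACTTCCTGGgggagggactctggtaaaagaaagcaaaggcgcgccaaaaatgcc
Slfn4, chr11:83175067-83175166, plus strand: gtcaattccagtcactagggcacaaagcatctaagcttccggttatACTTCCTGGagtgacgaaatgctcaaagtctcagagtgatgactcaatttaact

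The run began at −74 in Slfn1, −55 in Slfn2, −42 in Slfn3 and −73 in Slfn4, and 0.843% of all windows hold it on either strand. Because the run was chosen as shared by these promoters, its presence in each was fixed in advance, and that share is no test of it. Whether these windows are independent of each other was not tested. It was found in none of the long members. The interferon-gamma-activated site (TTC, any 3 bases, GAA) was found in 0 of the 8 member windows and in 8.3% of all windows. The letters GAGGAA, taken as the PU.1 core, stood on either strand in Slfn9 alone, with 28.3% of all windows holding them. The TATA box letters TATAAA, on either strand, stood in Slfn4 alone at −19, with 13.6%. Other forms of these sites were not searched for.

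Depth differed widely between the libraries, from 7903288 counts in wild-type tumor 4 to 268564145 in ΔAgo2 tumor 4. A gene with 0 counts could have reached 0.43 CPM in the former and 0.0105 CPM in the latter (3 counts), where CPM is the count divided by the TMM-scaled library total, times 1e+06. These limits cover counting error only. Every pair of libraries within a group differed by more than sampling noise, where the chi-square statistic divided by its degrees of freedom was between 39.1 and 734, and all 8 were kept as separate samples. Marker levels set 2 tumors apart. ΔAgo2 tumor 1 had more macrophage, T, B and NK cell marker transcript and less fibroblast marker transcript than any other ΔAgo2 tumor, and wild-type tumor 3 had a summed skeletal muscle marker level of 3745 CPM against 265 to 486 CPM in the other wild-type tumors. Ago2 itself was not lower in the tumors labelled ΔAgo2. Wild-type tumors 1 to 4 had 129.9, 195, 151.3 and 138.5 CPM, and ΔAgo2 tumors 1 to 4 had 118.3, 354.7, 215 and 270.1 CPM (log2 fold change 0.64 ± 0.31 SE, edgeR adjusted p = 0.205). Transcripts disrupted by small CRISPR lesions and Ago2 of host cells are both counted, so the level does not check the labels, which were taken as given.

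All 7 members had a positive log2 fold change, ΔAgo2 over wild-type, from 1.16 for Slfn2 and Slfn5 to 1.67 for Slfn4, or 2.23-fold to 3.18-fold. Across all genes tested, 52.5% had a log2 fold change above 0 and the median was 0.04, against a median of 1.29 for the members. None of the 7 passed the threshold of edgeR's quasi-likelihood test after Benjamini-Hochberg adjustment over all genes at 0.05, by which 1.36% of all genes tested were higher in ΔAgo2 tumors. Adjusted p-values ran from 0.0707 for Slfn4 to 0.217 for Slfn3. At an unadjusted p under 0.05, 6 of 7 members were higher, all but Slfn3, against 13.7% of all genes. The Wald test of DESeq2, the tool named in the study's methods, called 5 of 7 members higher (Slfn1, Slfn2, Slfn4, Slfn8 and Slfn9) against 7.37% of the genes it gave an adjusted p, and limma voom with quality weights called Slfn4 and Slfn9 against 14.9%. Voom gave a lower estimate than edgeR for each member but Slfn3, which was at 1.36. Its estimates were 0.55 for Slfn1, 0.46 for Slfn2, 1.52 for Slfn4, 0.71 for Slfn5, 0.90 for Slfn8 and 0.90 for Slfn9.

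**Figure D1:**
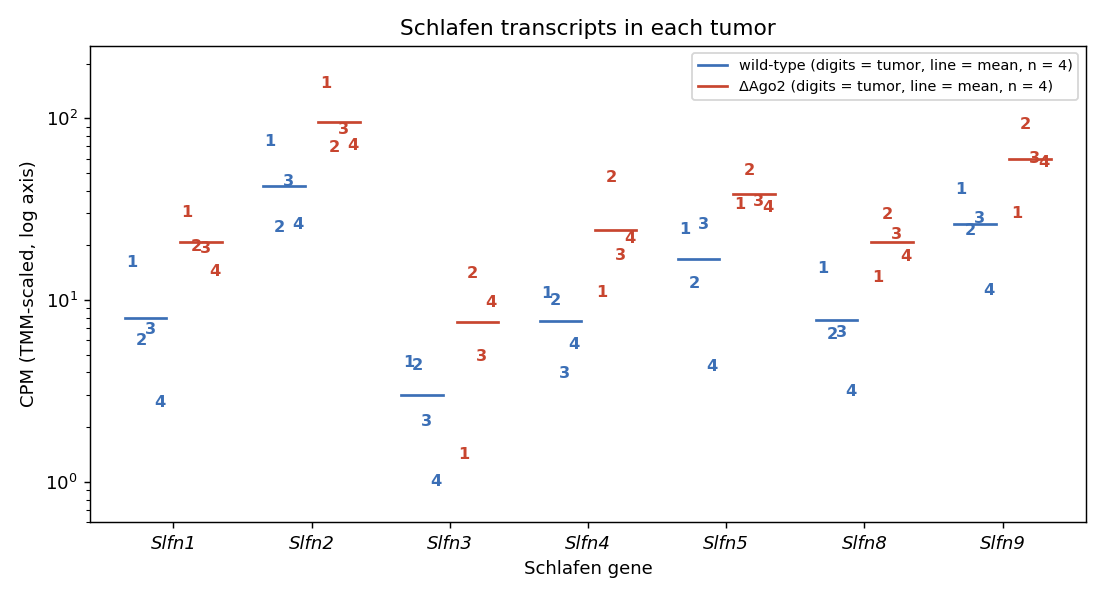
TMM-scaled CPM (log axis) of each Schlafen gene in each tumor; digits give the tumor number, blue for wild-type and red for ΔAgo2, and lines are group means (n = 4). The ΔAgo2 mean lies above the wild-type mean for each of the 7 genes. In this measure the groups do not overlap for Slfn4 and Slfn5, but in the deposited TPM they do.

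Among the short members, Slfn1 (ENSMUSG00000078763.2) measured 16.2, 6.01, 6.87 and 2.72 CPM in wild-type tumors 1 to 4, a mean of 7.94 ± 5.76 (SD, n = 4). In ΔAgo2 tumors 1 to 4 it measured 30.2, 19.8, 19.3 and 14.3 CPM, a mean of 20.9 ± 6.68 (SD, n = 4). In CPM, ΔAgo2 tumor 1 was the highest of the 8, and the groups overlapped only because wild-type tumor 1 stood above ΔAgo2 tumor 4. The TPM values the authors deposited are also scaled by gene length. There ΔAgo2 tumor 2 was the highest, at 38.89 with 35.54 in ΔAgo2 tumor 1, and wild-type tumor 1 (24.71) stood below ΔAgo2 tumor 4 (26.08). The log2 fold change was 1.36 ± 0.45 (SE), with a 95% confidence interval from 0.37 to 2.36 (edgeR adjusted p = 0.102, DESeq2 adjusted p = 0.0261). Without wild-type tumor 1 it was 1.98 and passed edgeR's threshold (adjusted p = 0.0258), and without any other tumor it lay between 1.11 and 1.53 and did not pass (adjusted p from 0.119 to 0.238).

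Slfn2 (ENSMUSG00000072620.3), the member tied to quiescence of T cells, was the most abundant of the family. Its levels were 74.7, 25.1, 44.7 and 26.1 CPM in wild-type tumors 1 to 4 (mean 42.7 ± 23.2, SD, n = 4) and 155.4, 68.7, 86.8 and 70.8 CPM in ΔAgo2 tumors 1 to 4 (mean 95.4 ± 40.8, SD, n = 4). As with Slfn1, ΔAgo2 tumor 1 was the highest, and wild-type tumor 1 alone reached into the ΔAgo2 range. The log2 fold change of 1.16 ± 0.39 (SE; 95% confidence interval 0.30 to 2.01) had an edgeR adjusted p of 0.106 and a DESeq2 adjusted p of 0.0382. It was 1.59 without wild-type tumor 1, with an edgeR adjusted p of 0.0429, and 0.81 without ΔAgo2 tumor 1, with 0.137; leaving out any other tumor gave 0.97 to 1.30, with 0.107 to 0.245.

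Slfn3 (ENSMUSG00000018986.10), of intermediate length, was the least abundant and the most scattered. Wild-type tumors 1 to 4 had 4.54, 4.39, 2.14 and 1.00 CPM (mean 3.02 ± 1.73, SD, n = 4), the last from 7 counts, while ΔAgo2 tumors 1 to 4 had 1.42, 14.1, 4.93 and 9.73 CPM (mean 7.54 ± 5.54, SD, n = 4). ΔAgo2 tumor 1, which led for Slfn1 and Slfn2 in CPM, was here below 3 of the 4 wild-type tumors. Its log2 fold change was 1.29 ± 0.63 (SE; 95% confidence interval −0.11 to 2.68), and the edgeR adjusted p was 0.217 and that of DESeq2 0.128. It was 1.61 without ΔAgo2 tumor 1 and 0.78 without ΔAgo2 tumor 2, with edgeR adjusted p-values of 0.061 and 0.52.

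Slfn4 (ENSMUSG00000000204.16), known from activated myeloid cells, had the highest fold change among the members. It measured 10.9, 10.01, 3.95 and 5.73 CPM in wild-type tumors 1 to 4 (mean 7.64 ± 3.33, SD, n = 4) and 11.1, 47.3, 17.6 and 21.8 CPM in ΔAgo2 tumors 1 to 4 (mean 24.4 ± 15.9, SD, n = 4). In CPM the groups did not overlap, although ΔAgo2 tumor 1 stood barely above wild-type tumor 1. In the deposited TPM they overlapped, with 6.12 in ΔAgo2 tumor 1 and 7.82 and 7.19 in wild-type tumors 1 and 2. The log2 fold change was 1.67 ± 0.46 (SE; 95% confidence interval 0.65 to 2.69; edgeR adjusted p = 0.0707, DESeq2 adjusted p = 0.00687). Without ΔAgo2 tumor 1 it was 1.89 and passed edgeR's threshold (adjusted p = 0.0339), and without ΔAgo2 tumor 2 it was 1.12 (adjusted p = 0.202).

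Slfn5 (ENSMUSG00000054404.13), the first of the long members and an interferon-responsive gene, was the other member whose groups did not overlap in CPM. Such genes, with every ΔAgo2 tumor above every wild-type tumor, made up 8.05% of all genes tested. It had 24.6, 12.4, 25.9 and 4.3 CPM in wild-type tumors 1 to 4 (mean 16.8 ± 10.3, SD, n = 4) and 33.7, 51.5, 35.04 and 32.4 CPM in ΔAgo2 tumors 1 to 4 (mean 38.2 ± 8.94, SD, n = 4). The ΔAgo2 tumors other than tumor 2 lay within 3 CPM of each other, whereas the wild-type tumors were widely spread. In the deposited TPM the groups overlapped, with 11.68 in ΔAgo2 tumor 1 and 11.8 in wild-type tumor 3. The log2 fold change was 1.16 ± 0.44 (SE; 95% confidence interval 0.19 to 2.14; edgeR adjusted p = 0.133, DESeq2 adjusted p = 0.0572), which passed in neither test. Without wild-type tumor 4, the shallowest library with 30 counts of Slfn5, it was 0.87 (edgeR adjusted p = 0.165). Without wild-type tumor 3 it was 1.44 (edgeR adjusted p = 0.0783). Leaving out any other tumor gave values between these, and none passed. In the annotated transcripts 388 of the 6296 windows of 100 bases of Slfn5 are shared, on the opposite strand, with the antisense gene Slfn5os, which had 0 counts in the wild-type tumors and 3, 4, 0 and 2 in the ΔAgo2 tumors.

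Slfn8 (ENSMUSG00000035208.16) had 14.9, 6.44, 6.62 and 3.15 CPM in wild-type tumors 1 to 4 (mean 7.77 ± 5.0, SD, n = 4) and 13.3, 29.5, 22.8 and 17.3 CPM in ΔAgo2 tumors 1 to 4 (mean 20.8 ± 7.03, SD, n = 4). The highest wild-type tumor, number 1, exceeded the lowest ΔAgo2 tumor, also number 1, and no other pair crossed. The difference amounted to a log2 fold change of 1.39 ± 0.42 (SE; 95% confidence interval 0.46 to 2.32; edgeR adjusted p = 0.0871, DESeq2 adjusted p = 0.0156). Without wild-type tumor 1 it was 1.92 and passed edgeR's threshold (adjusted p = 0.0256), and without any other tumor it lay between 1.15 and 1.54 and did not pass (adjusted p from 0.0512 to 0.232).

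Slfn9 (ENSMUSG00000069793.12) was the most abundant long member and followed Slfn8 closely. Its values were 40.7, 24.3, 28.1 and 11.3 CPM in wild-type tumors 1 to 4 (mean 26.1 ± 12.1, SD, n = 4) and 29.9, 92.6, 60.4 and 57.4 CPM in ΔAgo2 tumors 1 to 4 (mean 60.04 ± 25.7, SD, n = 4). Again wild-type tumor 1 and ΔAgo2 tumor 1 were the crossing pair. The log2 fold change was 1.19 ± 0.40 (SE; 95% confidence interval 0.31 to 2.07; edgeR adjusted p = 0.104, DESeq2 adjusted p = 0.0344), and without ΔAgo2 tumor 1 it was 1.40 and passed (edgeR adjusted p = 0.043). Without any other tumor it lay between 0.89, when ΔAgo2 tumor 2 was left out, and 1.49, and did not pass (edgeR adjusted p from 0.0687 to 0.278). Slfn8 and Slfn9 share 50 windows of 100 bases with each other and 105 and 181 with the pseudogene Slfn10-ps, in all 3.38% and 3.71% of their windows, and how reads with several possible origins were counted is not given for the tumors.

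The estimates moved with the base composition of the transcripts. Over the genes tested, the log2 fold change fell with GC content (Spearman's rho −0.561 across genes, which are not independent replicates), and 7 of 7 members were below the median GC content of 49.8%, from 43.2% in Slfn9 to 49.5% in Slfn2. With a GC trend fitted in each library, all log2 fold changes remained above 0 but were lower, from 0.65 for Slfn9 to 1.12 for Slfn1, with a median of 0.94, and none passed (edgeR adjusted p from 0.129 to 0.485). Slfn2, the member closest to the median GC content, moved least, from 1.16 to 1.08. Slfn4, Slfn3 and Slfn9 moved by more than 0.5, to 1.04, 0.75 and 0.65.

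Compared per length, by the TPM values the authors deposited, Slfn2 led the family. It averaged 70 ± 43.3 TPM in wild-type and 166 ± 27 TPM in ΔAgo2 tumors (SD, n = 4 each), was above every other member in 8 of 8 tumors, and held a mean share of 61.7% and 57.2% of the summed TPM of the members. Next came Slfn9 at 12.1 ± 6.45 and 33.1 ± 18.8 TPM and Slfn1 at 11.9 ± 9.19 and 33.3 ± 5.44 TPM. The order of these neighbours was not fixed, since Slfn1 exceeded Slfn9 in 3 of 8 tumors.

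Slfn5 (7.46 ± 4.92 and 19.1 ± 7.64 TPM), Slfn8 (5.26 ± 3.69 and 16.4 ± 8.0 TPM) and Slfn4 (5.20 ± 2.68 and 20.6 ± 16.2 TPM) followed, and could not be ranked beyond their spread. Slfn4 was above Slfn5 in 4 of 8 tumors and above Slfn8 in 4 of 8. Slfn3 was the lowest in 8 of 8 tumors, at 2.46 ± 1.54 and 7.57 ± 6.20 TPM. Summed over the 7 members, the level per length was 205.2, 84.6, 122.8 and 44.8 TPM in wild-type tumors 1 to 4 and 277.2, 362, 282.6 and 263.6 TPM in ΔAgo2 tumors 1 to 4.

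**Figure D2:**
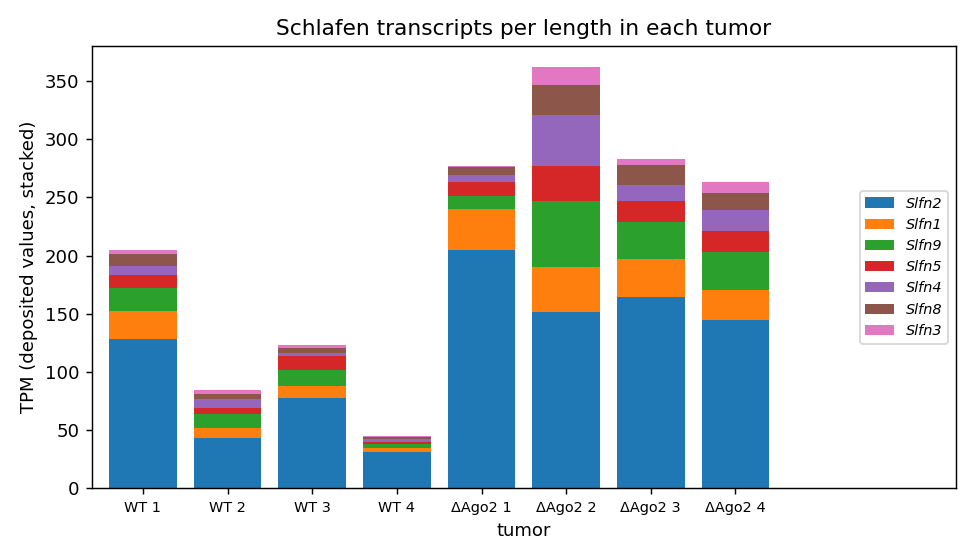
Deposited TPM of the 7 Schlafen genes, stacked, in each tumor. Slfn2 is the largest part of every bar, and its share ran from 41.8% in ΔAgo2 tumor 2 to 73.9% in ΔAgo2 tumor 1.

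The members did not share 1 profile across the ΔAgo2 tumors. In CPM, Slfn1 and Slfn2 were highest in ΔAgo2 tumor 1, whereas Slfn3, Slfn4, Slfn5, Slfn8 and Slfn9 were highest in ΔAgo2 tumor 2. In the deposited TPM Slfn1 too was highest in ΔAgo2 tumor 2, at 38.89 with 35.54 in ΔAgo2 tumor 1. In ΔAgo2 tumor 1 the intermediate members and Slfn8 and Slfn9 were at the lowest level of the 4 ΔAgo2 tumors. Relative to each gene's own mean log2 CPM over the 8 tumors, Slfn2 stood at 1.40 and Slfn3 at −1.40 in that tumor. Wild-type tumor 4, the shallowest library, was the lowest of the 8 for Slfn1, Slfn3, Slfn5, Slfn8 and Slfn9.

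**Figure D3:**
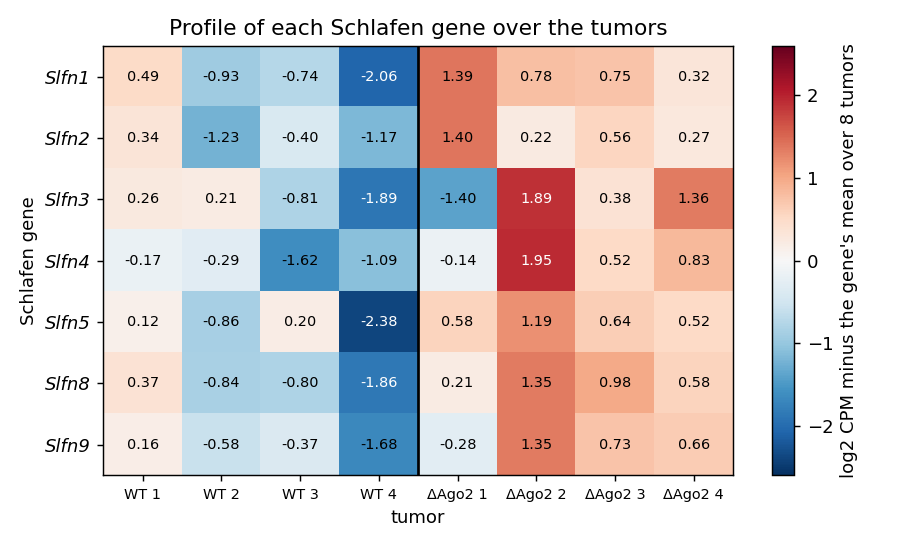
Log2 CPM of each Schlafen gene minus its own mean over the 8 tumors. In ΔAgo2 tumor 1 the values run from 1.40 (Slfn2) to −1.40 (Slfn3), and in ΔAgo2 tumor 2 from 0.22 (Slfn2) to 1.95 (Slfn4).

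ΔAgo2 tumor 1 also stood apart in its cell type markers. Its summed level was 118 CPM for the 14 T cell markers, while the other ΔAgo2 tumors had 35.4 to 50.9 CPM and the wild-type tumors 73.5 to 82 CPM. The largest part of each sum was Thy1, which is also on the fibroblast list. Thy1 had 70.7, 23.0, 35.0 and 29.7 CPM in ΔAgo2 tumors 1 to 4 and 46.6 to 71.0 CPM in wild-type tumors. These sums therefore do not measure T cells alone. For the 14 macrophage and monocyte markers the summed level of ΔAgo2 tumor 1 was 4061 CPM, with 1954 to 2365 CPM in ΔAgo2 tumors 2 to 4 and 2220 to 2740 CPM in wild-type tumors. For the 9 fibroblast markers it was 2287 CPM, with 4142 to 4625 CPM in ΔAgo2 tumors 2 to 4 and 4910 to 7250 CPM in wild-type tumors. The part of these cells in the Schlafen profile of that tumor was not tested.

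By the root mean square difference of these centred profiles over 8 tumors, Slfn8 and Slfn9 were the closest pair (0.282 log2 units), followed by Slfn1 and Slfn2 (0.415), Slfn5 and Slfn8 (0.449) and Slfn5 and Slfn9 (0.46). Slfn2 and Slfn3 were the farthest apart (1.35). These are descriptions over the same 8 libraries, which share depth and scaling.

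Whether the members differed from each other in their response to genotype was asked of the within-tumor ratio of each pair, which does not depend on library scaling. Of 21 pairs, 0 had an unadjusted p under 0.05 when the 70 ways to assign tumors to genotypes were enumerated in a two-sided exact permutation test, whose smallest possible p is 0.0286. The smallest p was 0.143, for Slfn8 over Slfn9, whose mean log2 ratio was −1.82 ± 0.27 in wild-type and −1.48 ± 0.26 in ΔAgo2 tumors (SD, n = 4 each, exact permutation test). All 21 adjusted p-values were 1, and 0 pairs passed under the other settings tried. With a smallest possible p of 0.0286, a single differing pair could not have passed the adjustment over 21 pairs. The adjusted values therefore decide nothing about single pairs. The spread was wide: the log2 ratio of Slfn2 over Slfn3 ran from 2.28 in ΔAgo2 tumor 2 to 6.75 in ΔAgo2 tumor 1. A difference in response between members was thus not detectable, and a common response is not shown.

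The remaining relatives gave little signal. Slfn10-ps, a transcribed pseudogene between Slfn8 and Slfn2, had 1.22 ± 0.64 CPM in wild-type and 2.31 ± 1.43 CPM in ΔAgo2 tumors (SD, n = 4 each; log2 fold change 0.86 ± 0.58 SE, edgeR adjusted p = 0.349). Slfn14, a long member known from erythroid and platelet precursors, had 2 counts in wild-type tumor 1, 1 in ΔAgo2 tumor 2 and 2 in ΔAgo2 tumor 4, and 0 in the other 5. Slfnl1, a Schlafen-like gene on chromosome 4, had 1 count in ΔAgo2 tumor 4 and 0 elsewhere. Neither was tested.

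Within 250 kb on either side of the cluster, 16 genes outside the family passed the count filter, and 0 of 16 were called by edgeR, while 1 reached an unadjusted p under 0.05 in the higher and 2 in the lower direction. DESeq2 called Rad51d (adjusted p = 0.00756) and Nle1 (adjusted p = 0.0428) lower, and limma voom called 3 higher and 1 lower. Over all 16061 genes tested, both directions together, 4281 had an unadjusted edgeR p under 0.05, DESeq2 called 2292 and voom called 4476. The log2 fold changes of the 16 genes lay on both sides of 0. The largest were 1.43 for Cct6b (edgeR adjusted p = 0.122), which was under 1 CPM in every tumor, 0.88 for AA465934 (0.246), 0.64 for 1190001M18Rik (0.50), 0.60 for AI662270 (0.336) and 0.50 for Gm11427 (0.426), the pseudogene that shares 93 windows of 100 bases with Slfn3. Those of Gm11423, Rffl and Mmp28 were 0.43, 0.42 and 0.29.

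Genes close to 0 were Zfp830 (0.05), Gm11425 (0.05), Lig3 (0.04), which encodes a DNA ligase, and Ap2b1 (−0.07), a subunit of the clathrin adaptor. Just upstream of Slfn5 the values were negative, at −0.61 for Rad51d (edgeR adjusted p = 0.0826), a recombination repair gene, −1.03 for Nle1 (0.107) and −0.99 for Unc45b (0.267), a muscle myosin chaperone. Rad51d ran from 26.3 to 34.4 CPM in wild-type and from 19.1 to 20.3 CPM in ΔAgo2 tumors, without overlap. Unc45b was highest, at 7.32 CPM, in wild-type tumor 3, the tumor with the high muscle marker level.

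**Figure D4:**
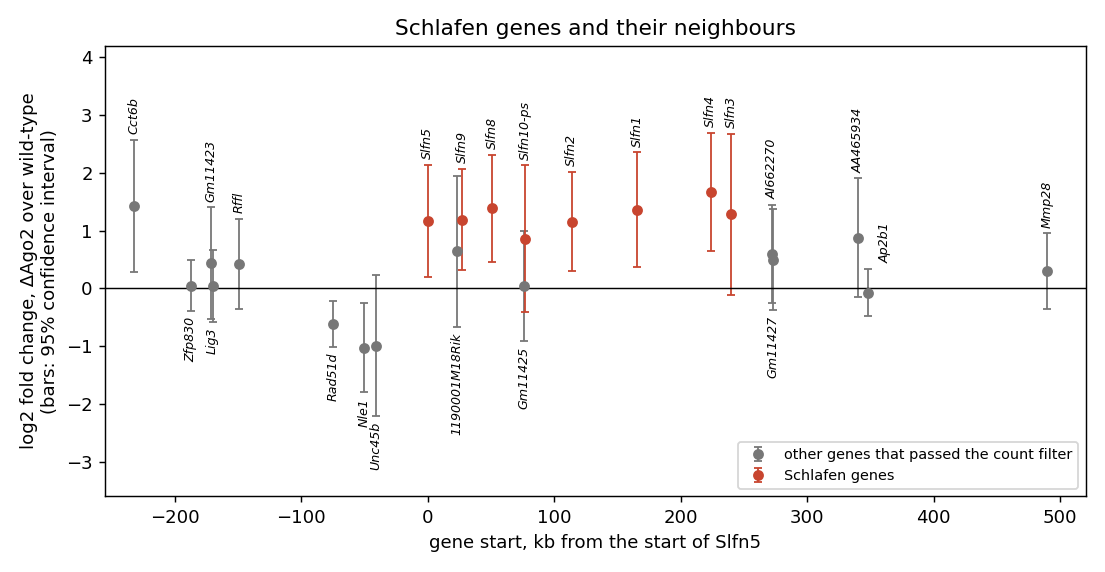
Log2 fold change, ΔAgo2 over wild-type, with 95% confidence intervals from edgeR, against the distance of each gene's start from that of Slfn5 in kb, for genes of the region that passed the count filter. The 7 members and Slfn10-ps (red) lie above 0, while the neighbouring genes (grey) lie between −1.03 and 1.43.

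The genes outside the family whose centred profile over the 8 tumors was nearest to a member's are given as a description, with the root mean square difference in log2 units. For Slfn8 they were Ifih1 (0.123), which encodes the double-stranded RNA sensor MDA5, Gm5431 (0.129) and Olfr56 (0.178). For Slfn9 they were Ifi207 (0.0966), Eif2ak2 (0.182), which encodes the RNA-activated kinase PKR, and Atp8b4 (0.187). For Slfn5 they were the monocyte chemokine receptor Ccr2 (0.226), Trim30a (0.235) and Dram2 (0.239).

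For the short members the nearest genes were Gm12250 (0.187), Rnase6 (0.192) and the interferon-stimulated Ifit3 (0.195) for Slfn1, and Hist2h3c2 (0.157), B2m (0.17), the light chain of MHC class I, and Rab26os (0.171) for Slfn2. Hist2h3c2 averaged 0.74 CPM over the 8 tumors, close to the 0.43 CPM that could have gone uncounted in wild-type tumor 4. Slfn4 was nearest to the guanylate-binding gene Gbp9 (0.304), F630028O10Rik (0.344) and Oas2 (0.355). Slfn3 was nearest to Prrg4 (0.13), and its next genes, Gm6483 (0.349) and 2610005L07Rik (0.355), were much farther. Of these 21 neighbours in profile, edgeR called Oas2 alone higher in ΔAgo2 tumors (log2 fold change 1.61, adjusted p = 0.0435).

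The interferon pathway that is known to induce Schlafen genes was read from lists. Of the 15 genes of the IFN signature, which the study chose on these tumors and which is therefore not independent evidence of its direction, 7 were called higher and 0 lower by edgeR, 15 had a log2 fold change above 0, and the median was 1.49 (1.18 after the GC correction), beside a median of 0.04 over all genes tested. At an unadjusted edgeR p under 0.05, 15 of the signature genes were higher, and DESeq2 called 15 and voom 11 higher. The adhesion gene Vcam1 (1.60 ± 0.28 SE, edgeR adjusted p = 0.0148) and the chemokine gene Ccl2 (1.63 ± 0.28 SE, edgeR adjusted p = 0.015) had the smallest p-values. Vcam1 rose from 91.2 ± 34.9 to 277 ± 37.6 CPM and Ccl2 from 114 ± 41.5 to 351 ± 41.6 CPM (SD, n = 4 each).

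Of 38 other type I interferon-stimulated genes tested, 2 were called higher and 0 lower by edgeR, 38 had a log2 fold change above 0, and the median was 0.90. At an unadjusted edgeR p under 0.05, 25 of the 38 were higher and 0 lower, and DESeq2 called 14 and voom 12 higher. The shares of all genes higher by these 3 measures were 13.7%, 7.37% and 14.9%. Those called by edgeR were Ifi204 (2.07 ± 0.41 SE, edgeR adjusted p = 0.0266) and Zbp1, a sensor of Z-form nucleic acids (1.32 ± 0.26 SE, edgeR adjusted p = 0.0278). The median of the Schlafen members, 1.29, lay between those of these lists. Ifi204 was between 79 and 94.9 CPM in the ΔAgo2 tumors and between 9.03 and 38.9 CPM in the wild-type tumors.

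Upstream in the pathway fewer genes moved. Among the 16 interferon receptors and signal transducers edgeR called 0, while 3 reached an unadjusted p under 0.05 in the higher and 1 in the lower direction, DESeq2 called 1 lower and limma voom 2 higher and 3 lower. Of the 16, 10 had a log2 fold change above 0 and the median was 0.31. Socs3, a feedback inhibitor of cytokine receptors, had −0.80 ± 0.23 SE (edgeR adjusted p = 0.077, DESeq2 adjusted p = 0.0205). Among the 18 interferon ligands 0 passed the count filter. Their summed level was at most 0.86 CPM in any tumor, and Ifna12, Ifna15, Ifnl2 and Ifnl3 had 0 counts in all 8.

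Markers of the cells that commonly express Schlafen genes had log2 fold changes on both sides of 0. In the 7 lists of immune cells edgeR called 0 genes in either direction. Pan-leukocyte markers had a median log2 fold change of 0.37 (5 of 8 above 0, and 1 higher at an unadjusted edgeR p under 0.05), led by Ptprc, which encodes CD45 (1.12 ± 0.33 SE, edgeR adjusted p = 0.0785) and was the 1 gene called by DESeq2 and by voom, and Cd53 (1.07 ± 0.53 SE, 0.22). Their summed level ran from 596 to 1050 CPM in wild-type and from 544 to 1100 CPM in ΔAgo2 tumors. T cell markers had a median of 0.05 (8 of 14 above 0, and 0 at an unadjusted p under 0.05), with 1.17 for Cd3g and −0.50 for Thy1; DESeq2 called 0 and voom 2 lower. Macrophage and monocyte markers had a median of −0.02 (7 of 14 above 0, while 2 reached an unadjusted p under 0.05 in the higher and 1 in the lower direction), with 1.22 for Ccr2 (edgeR adjusted p = 0.115) and −0.51 for Cd68 (edgeR adjusted p = 0.136). DESeq2 called Ccr2 higher (adjusted p = 0.0419), and voom called 3 of these markers lower. Such counts stand beside those over all 16061 genes tested, both directions together. There 4281 had an unadjusted edgeR p under 0.05, DESeq2 called 2292 and voom called 4476.

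Other immune lists were thinner. NK cell markers had a median of 0.81 (7 of 8 above 0, and 4 higher at an unadjusted p under 0.05), with 0.94 for Klrk1 and 0.72 for Prf1, and their summed level was 7.6 to 20.5 CPM in wild-type and 17.5 to 31.7 CPM in ΔAgo2 tumors. Dendritic cell markers had a median of −0.32 (2 of 8 above 0, and 2 lower at an unadjusted p under 0.05), with −1.15 for Flt3 and −1.27 for Cd209a, and summed levels of 33.4 to 47.3 CPM in wild-type and 36.4 to 52.1 CPM in ΔAgo2 tumors. Neutrophil markers, 6 of 10 tested, had a median of −0.32 with S100a9 at 0.92 and Retnlg at −1.11, and summed 75.7 to 133 CPM in wild-type and 72.4 to 119 CPM in ΔAgo2 tumors. B cell markers, 6 of 8 tested, had a median of 0.06 with Pax5 at 0.31 and Igkc at 0.70, and summed 13.6 to 16.9 CPM in wild-type and 10.7 to 30.1 CPM in ΔAgo2 tumors. DESeq2 and voom both called Flt3 and Cd209a lower, voom also called S100a9 higher and Retnlg lower, and both tools called 0 NK and 0 B cell markers. At an unadjusted p under 0.05 edgeR had 0 neutrophil and 0 B cell markers.

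Non-immune cells differed in places. Over all 16061 genes tested, edgeR called 219 higher and 341 lower. Fap, a marker of activated fibroblasts, was called lower in ΔAgo2 tumors (−1.52 ± 0.32 SE, edgeR adjusted p = 0.0329), 1 of 9 fibroblast markers, whose median was −0.64, and Col1a1 was at −1.30 (edgeR adjusted p = 0.0591). At an unadjusted edgeR p under 0.05, 5 fibroblast markers were lower and 1 higher. DESeq2 called 3 of them lower and 0 higher, and voom called 4 lower and 1 higher. Vwf, made by endothelium, was called lower (−1.10 ± 0.26 SE, edgeR adjusted p = 0.0466), 1 of 8 endothelial markers with a median of −0.04, while Emcn stood at 0.52; summed levels were 117 to 179 CPM in wild-type and 118 to 155 CPM in ΔAgo2 tumors. Krt10, of differentiating skin, was called higher (2.06 ± 0.48 SE, edgeR adjusted p = 0.046), 1 of 10 keratinocyte markers with a median of 1.44, and Trp63 stood at 1.80. At an unadjusted edgeR p under 0.05, 3 keratinocyte markers were higher and 0 lower, and DESeq2 called 2 and voom 5 higher. The keratinocyte markers summed 15.6 to 619 CPM in wild-type and 507 to 967 CPM in ΔAgo2 tumors. Skeletal muscle markers had 0 of 10 above 0, and edgeR called 0, with 10 lower at an unadjusted p under 0.05. DESeq2 called Acta1 and Ckm lower and voom called Acta1. The list had a median of −3.10, with −3.01 for Acta1 and −3.31 for Ckm, and summed 265 to 3750 CPM in wild-type and 53.3 to 218 CPM in ΔAgo2 tumors. Thy1 was on both the T cell and the fibroblast list. The part of these cell types in the Schlafen differences was not tested.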

How the data were processed

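RNA of 4 wild-type and 4 ΔAgo2 LLC tumors was sequenced as stranded mRNA libraries, paired-end. The authors deposited raw gene counts, whole reads per gene with no normalization, and TPM, counts divided by gene length and scaled to a common total. The submitters' processing notes name STAR and mm10, and the paper, for cultured cells, names featureCounts; the strand setting and the treatment of multi-mapping reads are not given in the sources used here, so the counts of members that share sequence are uncertain. Identifiers were matched to GENCODE M21 (99.29% of 55487 with their version, and 300 more without it). Promoter letters came from RefSeq (GRCm38.p6).

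Deposited counts were tested with edgeR 4.0.16 under R 4.3.3 (filterByExpr, TMM scaling, quasi-likelihood test without covariates, Benjamini-Hochberg adjustment over all genes tested, threshold 0.05). CPM used TMM-scaled totals, and log2 CPM a prior count of 2. DESeq2 1.42.0, limma 3.58.1, other scalings and filters, GC and length trends, thinning, log2(TPM + 1) and log2(TPM + 0.1), a replicate block and leaving out each tumor were alternatives. Promoters were aligned with Biopython 1.88. Procedures were tested on simulated data.

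The genes named were the members, other Schlafen genes, Ago2, the 3 nearest profiles of each member, the 2 smallest p-values of each list, markers at 0, and every filtered gene within 250 kb; some genes this rule names are not reported here. The members and lists were chosen with earlier results of these data known. Same-numbered tumors did not deviate together. The labels call the tumors biological replicates, with 4 tumors in each group. Other experiments of the study were not analysed here.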

Additional observations from a re-analysis of the deposited data

Results flagged for a closer look

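In 4 of the 36 groups of 4 tumors examined (7 members and 11 marker lists in each genotype), 1 tumor lay far from the others relative to the range of its group. About 1.8 such groups would be expected by chance if the values in each group were normally distributed, which was not tested. The groups share the same tumors, so the number found is not shown to exceed chance. Slfn5 was 51.5 CPM in ΔAgo2 tumor 2, and ΔAgo2 tumors 1, 3 and 4 had 32.4 to 35 CPM. The B cell markers summed 30.1 CPM in ΔAgo2 tumor 1, where ΔAgo2 tumors 2 to 4 had 10.7 to 13.5 CPM, and the NK cell markers summed 31.7 CPM in the same tumor, where those had 17.5 to 19 CPM. The skeletal muscle markers summed 3750 CPM in wild-type tumor 3, and wild-type tumors 1, 2 and 4 had 265 to 486 CPM.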

How the results depend on the processing

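All 7 members kept a log2 fold change above 0 under each alternative in which they were tested, and no value reversed. Slfn3 and Slfn5 passed the threshold under none of them. Over the alternatives the log2 fold change was lowest with voom for Slfn1 (range 0.55 to 1.98), Slfn2 (0.46 to 1.59), Slfn5 (0.71 to 1.65) and Slfn8 (0.90 to 1.92). It ran from 0.60 to 1.61 for Slfn3 (lowest with the replicate block and GC correction), 1.04 to 1.89 for Slfn4 and 0.65 to 1.49 for Slfn9. Over the alternatives the adjusted p ran from 0.0249 to 0.251 for Slfn1, 0.0177 to 0.245 for Slfn2, 0.0559 to 0.605 for Slfn3, 0.00687 to 0.299 for Slfn4, 0.0572 to 0.322 for Slfn5, 0.0156 to 0.287 for Slfn8 and 0.0306 to 0.352 for Slfn9. No member was called with DESeq2 size factors, total counts or upper quartile scaling, with at least 10 counts in every library (where Slfn3 was not tested), with the GC or length correction, after thinning, or by limma on TPM. The Wald test of DESeq2 called 5 members and 2292 genes, limma voom 2 and 4476, and the fit without a count filter 2 (Slfn4 and Slfn8) and 983, against 0 members and 560 genes in the main fit. The length correction called 1199 genes, and limma on log2(TPM + 1), on log2(TPM + 0.1) and on log2(TPM + 1) without a filter called 153, 107 and 77. Leaving out 1 tumor gave from 0 to 3 members and from 88 to 1793 genes called; it was 3 members (Slfn1, Slfn2 and Slfn8) without wild-type tumor 1, with 661 genes, and 2 (Slfn4 and Slfn9) without ΔAgo2 tumor 1, with 1793 genes. The gene counts without wild-type tumors 2, 3 and 4 were 143, 934 and 265, and without ΔAgo2 tumor 2, 3 or 4 they lay between 88 and 166. The cause of these differences was not tested. The smallest library held 7 to 182 counts of each member.

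The replicate numbers did not pair the tumors, since same-numbered tumors correlated at −0.236, 0.103, −0.0448 and −0.29 in their deviations from the group means. With the replicate number as a block, 0 members and 70 genes were called, and with the block and the GC correction together 2 members (Slfn1 and Slfn2) and 314 genes. For the ratios between members, 0 of 21 pairs passed under any alternative, but sign flips within the numbered pairs cannot reach a p below 0.125.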
